A study of Mus musculus with 18 samples.

Results

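The granins are the acidic proteins that fill the dense-core granules of endocrine cells, and 5 of their genes are described here: Chga and Chgb, which encode chromogranin A and chromogranin B, Scg2 and Scg3, which encode secretogranins, and Vgf, which encodes a related granule protein. They were taken by name from a signal table of 18118 mouse gene symbols, all 5 were found, and all 5 passed the detection filter that left 8942 genes to test. The values come from 18 Illumina MouseRef-8 v2.0 beadchip arrays in 6 groups of 3. Of these, 4 groups are labelled induced beta cells at day 10, at day 30, at day 60 or after 7 months, and the other two are endogenous beta cells and acinar cells, the exocrine cells that make digestive enzymes. All mice were Rag1-/-, a strain with no mature T and B cells. Induction was by adenovirus placed in the splenic lobe. Endogenous islets were then removed, the acinar fraction was taken to single cells, and Cherry-positive induced cells were sorted. The labels name neither the genes the virus carried nor the ages of the mice, and they do not say how endogenous beta cells were purified. Whether the 3 arrays of a group stand for separate mice is not stated, and p-values then reflect only array-to-array spread, which may be technical.

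Granins aggregate in the trans-Golgi network, help to load hormone into forming granules, and are cut by prohormone convertases into peptides that are released with the hormone. In the pancreas they mark islet endocrine cells of several types, not beta cells alone, and the zymogen granules of acinar cells are built from other proteins. Promoters of several granin genes are known to carry a cyclic AMP response element, a short palindrome bound by CREB and related factors.

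The RefSeq promoter table (GRCm38.p6) held the 300 bases around the annotated start, 250 before and 50 after, for 4 of the 5 genes, with Vgf not matched. The promoters of Chgb (chr2:132781392-132781691, plus strand) and Scg2 (chr1:79439977-79440276, minus strand) are printed because 7-month cells differ least from endogenous beta cells in Chga and Chgb and most in Scg2, as described below, while Chgb and Scg2 both hold the full palindrome TGACGTCA, which is in capitals.
Chgb: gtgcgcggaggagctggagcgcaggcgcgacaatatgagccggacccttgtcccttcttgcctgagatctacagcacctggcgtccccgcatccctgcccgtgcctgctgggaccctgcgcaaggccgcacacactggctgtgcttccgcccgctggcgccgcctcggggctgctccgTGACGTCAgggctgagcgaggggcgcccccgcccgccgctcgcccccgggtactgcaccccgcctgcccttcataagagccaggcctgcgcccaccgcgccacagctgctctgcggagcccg
Scg2: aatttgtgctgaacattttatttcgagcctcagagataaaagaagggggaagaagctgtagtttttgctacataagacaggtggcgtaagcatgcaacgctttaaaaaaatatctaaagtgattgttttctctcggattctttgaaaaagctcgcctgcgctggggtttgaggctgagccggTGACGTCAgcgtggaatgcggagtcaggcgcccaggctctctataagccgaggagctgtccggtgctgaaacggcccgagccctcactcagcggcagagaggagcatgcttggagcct
The palindrome begins 72 bases before the start in Chgb and 68 bases before it in Scg2, and 1.79% of 32851 promoters of this length hold it on either strand. The shorter element TGACG, which the full palindrome contains, begins 44 bases before the start in Chga and 30 bases before it in Scg3, without the full palindrome, and 20.8% of the promoters hold it. The GC box GGGCGG was present in Chga and Chgb and in 35.7% of promoters, and TATAAA was present in Chga alone, 5 bases after its annotated start, and in 13.6% of promoters. These 4 motifs were chosen after the promoters had been read, and a match of letters is a description, not a bound site.

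Before the values, 3 properties of the arrays bear on them. Day 60 and 7-month arrays that share a number in their labels deviated together from their group means, with correlations over genes of 0.79 to 0.862. Those between different numbers were at most −0.308, but centring on a mean of 3 arrays pushes them below 0, so they add no separate observation. The SD over tested genes of the log2 difference between a day 60 and a 7-month array of the same number was 0.157 to 0.173. It was 0.367 to 0.459 within the 7-month group, 0.37 to 0.458 within the day 60 group and 0.118 to 0.239 within the other groups. The labels do not say what the shared number means, and 7-month values are therefore given beside day 60 values and not as a separate repeat of them. The endogenous beta arrays also carried high signals of hormones of other islet cells: Gcg, encoding glucagon, read 18383 to 18860, Sst, encoding somatostatin, 14328 to 15369, and Ppy, encoding pancreatic polypeptide, 5790 to 6447. Induced arrays kept acinar signal: 8 acinar marker genes summed to 144961 to 152509 at day 10, 134359 to 143147 at day 30, 110686 to 114385 at day 60 and 107467 to 115964 at 7 months, against 5376 to 6133 in endogenous beta cells and 161815 to 165919 in acinar cells. All 11 beta markers were measured in induced cells from day 30 on and in endogenous beta cells, 10 of them at day 10, and Ins1 and Ucn3 were not measured in acinar cells. Here a gene is measured on an array when its detection p-value is under 0.01 and its signal exceeds the mean of the negative controls.

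**Figure D1:**
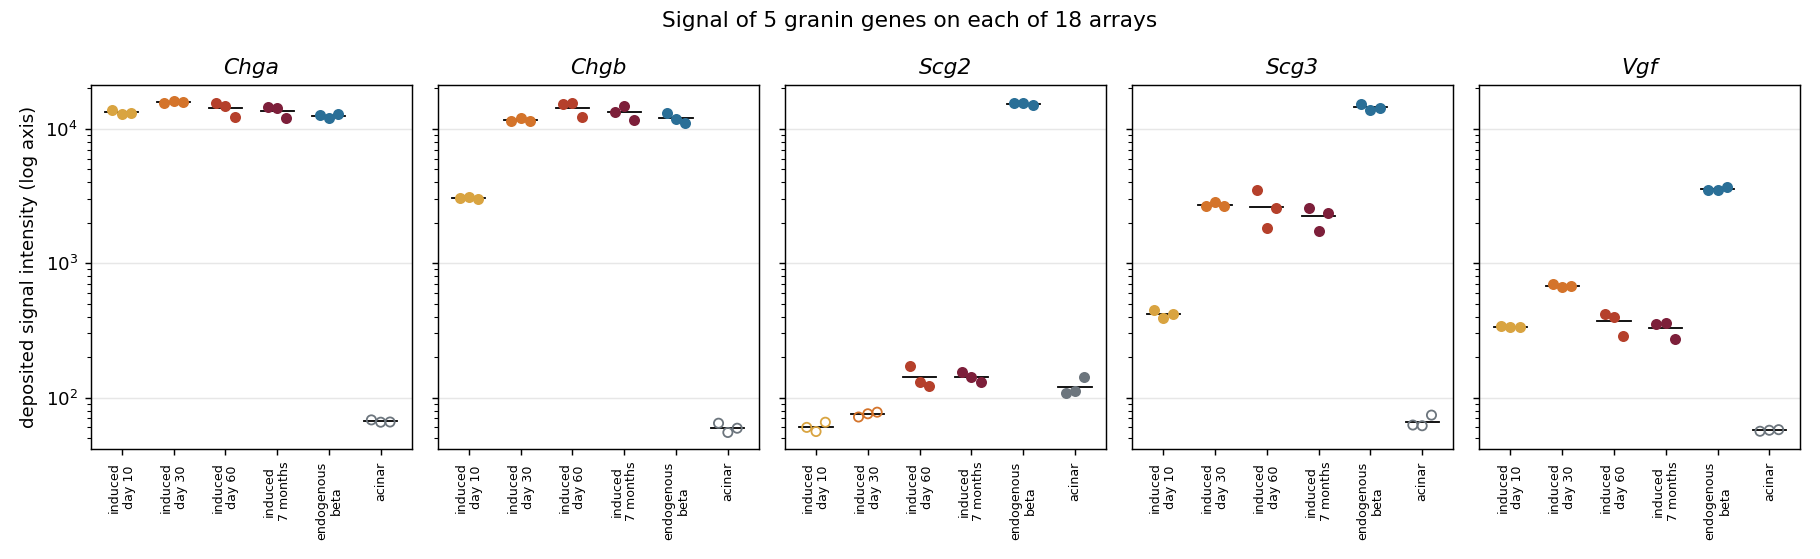
Deposited signal intensity (log axis) of each granin gene on each array, in the 4 induced groups, endogenous beta cells and acinar cells. Points are arrays, black lines group means, and open points are values not measured, as defined in the text. Chga reaches the endogenous level at all 4 induced times and Chgb from day 30 on, while Chgb at day 10 lies below it. Scg3 and Vgf lie between their acinar and endogenous levels. Scg2 stays at 172 or less in every induced array against 15047 or more in endogenous beta cells.

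Chga, whose product drives granule formation and is the precursor of peptides such as pancreastatin, read 13724, 12935 and 13203 at day 10. It read 15584, 15960 and 15783 at day 30, 15502, 14831 and 12207 at day 60, and 14403, 14329 and 12123 at 7 months. It read 12733, 11948 and 12911 in endogenous beta cells and 68.2, 65.6 and 65.8 in acinar cells. Induced arrays of all 4 times were thus in the range of endogenous beta cells or above it on the deposited scale. Acinar signals were above the control means (49.9 to 53.5), but their detection p-values of 0.0172, 0.0395 and 0.0412 missed the 0.01 cut. After quantile normalization the difference from acinar cells was at least 179-fold at day 10, at least 220-fold at day 30, at least 273-fold at day 60 and at least 270-fold at 7 months. These are lower bounds on the normalized scale, because no acinar array measured the gene and a detection floor replaced the acinar level. The deposited means differed 200-fold, 237-fold, 213-fold and 205-fold in the same order. The bounds at day 60 and 7 months thus exceed the deposited ratios, and the size depends on the scaling. The highest adjusted p-value of the 4 comparisons was 1.41e-16 (limma).

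Chgb, the sister protein that also nucleates granules, was low at day 10 and higher later. Its signals were 3037, 3088 and 2979 at day 10, 11451, 11996 and 11470 at day 30, 15161, 15641 and 12226 at day 60 and 13435, 14678 and 11627 at 7 months. It read 13085, 11748 and 11119 in endogenous beta cells and 64.5, 55.0 and 59.2 in acinar cells. The day 10 arrays lay below every later induced array and every endogenous array, and day 30, day 60 and 7-month arrays overlapped endogenous beta cells on the deposited scale. Against acinar cells Chgb was at least 43.0-fold higher at day 10, at least 145-fold at day 30, at least 273-fold at day 60 and at least 262-fold at 7 months (adjusted p at most 2.16e-14). The deposited means differed 51-fold, 195-fold, 241-fold and 222-fold in the same order, so the late bounds hold only on the normalized scale. The 7-month values of Chga and Chgb are among 80 values of 27 genes that carry more than 7 digits, all in 7-month columns. Their ratios to the day 60 array of the same number, 0.929, 0.966 and 0.993 for Chga and 0.886, 0.938 and 0.951 for Chgb, stand beside medians of 0.864, 0.919 and 0.949 for the bright genes without such digits.

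Scg2, the precursor of secretoneurin, behaved otherwise. Its signals of 60.0, 55.9 and 65.6 at day 10 and of 71.7, 75.8 and 77.9 at day 30 were not measured above the negative controls on any array. It read 172, 131 and 121 at day 60 and 155, 142 and 131 at 7 months. It read 15462, 15420 and 15047 in endogenous beta cells and 108, 111 and 142 in acinar cells, where all 3 arrays measured it. No induced array came near endogenous beta cells. Against endogenous beta cells Scg2 was called lower at all 4 times, and the ratio of the deposited group means was 253-fold at day 10 and 204-fold at day 30. After normalization the bounds were at least 415-fold lower at day 10 and at least 522-fold lower at day 30, so that the size depends on the scaling. The log2 difference was −8.02 ± 0.16 (SE) at day 60 and −7.83 ± 0.16 at 7 months (adjusted p at most 9.32e-16), where the deposited means differed 108-fold and 107-fold. The 9 markers of other islet hormone cells summed to 32833 to 34130 at day 10, 44237 to 46388 at day 30, 25093 to 35481 at day 60 and 23748 to 32491 at 7 months, against 46746 to 47016 in endogenous beta cells. Within that list Gcg was lower in induced cells, at 801 to 859 at day 10, 3193 to 3678 at day 30, 3686 to 10817 at day 60 and 3440 to 9507 at 7 months. Sst was lower too, at 862 to 2655 over the induced arrays against 14328 to 15369 in endogenous beta cells. So was Ppy, at 136 to 472 against 5790 to 6447. Ghrl, encoding ghrelin, was higher, at 11307 to 22042 over the induced arrays against 67.2 to 75.4 in endogenous beta cells, and Ttr, encoding transthyretin, was 7457 to 17906 against 6939 to 7127. Irx1 and Irx2, factors of glucagon cells, were measured in no group, and the part of these cells in the Scg2 difference was not tested.

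Against acinar cells Scg2 was called lower at day 10 (adjusted p = 7.7e-11) and day 30 (adjusted p = 4.69e-10) in every setting run, but the size depends on the setting. The deposited means differed 1.99-fold at day 10 and 1.60-fold at day 30. The log2 difference at day 10 was −3.01 with quantile normalization, −2.19 with median scaling, −0.99 in the deposited log10 matrix and −0.59 with limma's own inference of the controls. At day 30 it was −2.63, −1.94, −0.67 and −0.55 in the same order. At day 60 the difference was −1.13 ± 0.16 (adjusted p = 1.06e-05) and at 7 months −0.94 ± 0.16 (adjusted p = 7.31e-05), but with median scaling these were −0.24 and −0.15 and not called, and in the deposited log10 matrix, without background correction or scaling, they were 0.22 and 0.25 and not called. Late induced cells and acinar cells therefore cannot be ordered by Scg2 from these arrays.

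Scg3, which binds chromogranin A and anchors it to the cholesterol-rich granule membrane, lay between acinar and endogenous beta levels. It read 450, 389 and 420 at day 10, 2649, 2853 and 2642 at day 30, 3490, 1820 and 2566 at day 60 and 2578, 1733 and 2379 at 7 months. It read 15409, 13773 and 14373 in endogenous beta cells and 62.5, 61.7 and 74.1 in acinar cells. All induced arrays were above all acinar arrays and below all endogenous arrays. Scg3 was at least 6.25-fold higher than in acinar cells at day 10, at least 28.5-fold at day 30, at least 37.5-fold at day 60 and at least 35.6-fold at 7 months (adjusted p at most 4.22e-10). On the deposited scale Scg3 differed 33.7-fold at 7 months, below that bound. Its difference from endogenous beta cells was −5.54 ± 0.19 at day 10, −3.35 ± 0.19 at day 30, −2.96 ± 0.19 at day 60 and −3.03 ± 0.19 at 7 months (adjusted p at most 1.32e-09). At day 30 that is a 10.2-fold difference, while the deposited means differed 5.35-fold.

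Vgf, a granule protein first known as a nerve growth factor target and a source of bioactive peptides, stayed well below its endogenous level. It read 338, 335 and 337 at day 10, 701, 660 and 671 at day 30, 422, 397 and 288 at day 60 and 355, 362 and 274 at 7 months. It read 3491, 3516 and 3718 in endogenous beta cells and 56.2, 57.1 and 57.7 in acinar cells. As with Scg3, induced arrays filled a band of their own between the other groups. Vgf was at least 5.56-fold higher than in acinar cells at day 10, at least 8.06-fold at day 30, at least 4.72-fold at day 60 and at least 4.67-fold at 7 months (adjusted p at most 6.11e-11). It differed from endogenous beta cells by −3.15 ± 0.17 at day 10, −2.62 ± 0.17 at day 30, −3.39 ± 0.17 at day 60 and −3.40 ± 0.17 at 7 months (adjusted p at most 9.86e-10).

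**Figure D2:**
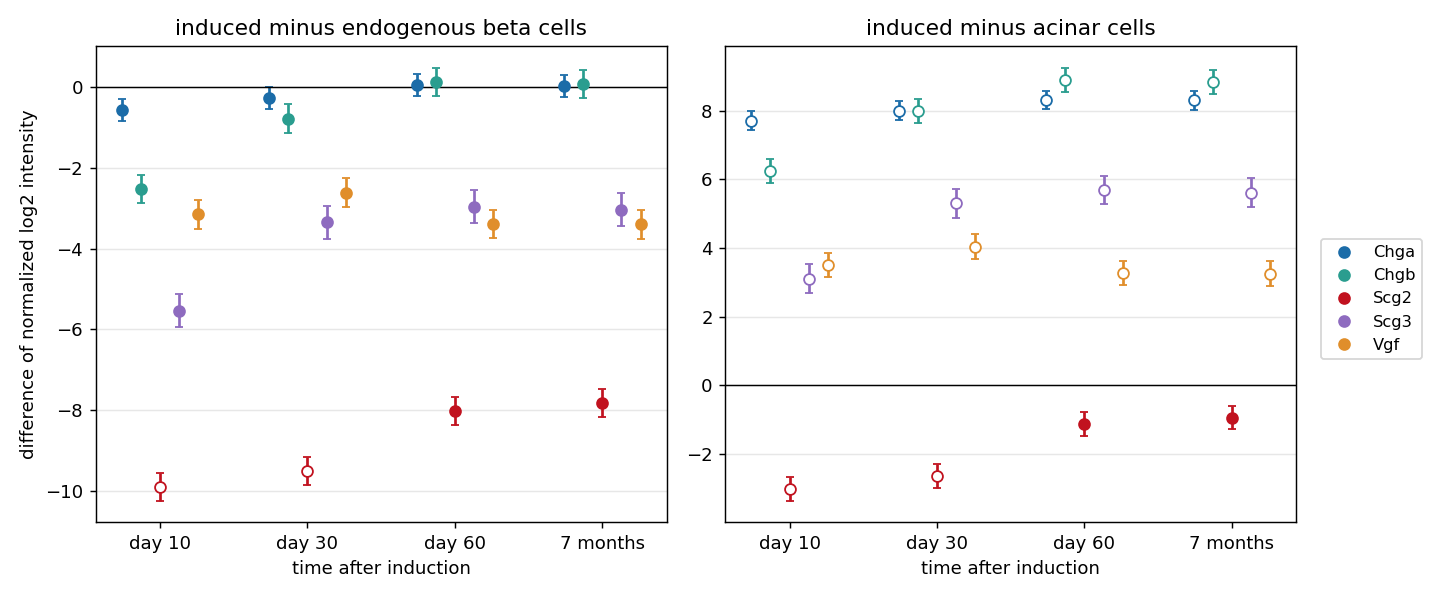
Difference of normalized log2 intensity of each granin gene by time after induction, induced minus endogenous beta cells (left) and induced minus acinar cells (right); bars are 95% confidence intervals from the fit, n = 3 arrays a group, and open points have a group in which no array measured the gene. Chgb lies at −2.53 at day 10 and 0.14 at day 60 on the left while Scg3 and Vgf stay below −2.6 at every time; the sign of Chga at day 10 and day 30 on the left turned with median scaling and in the log10 matrix, and that of Scg2 at day 60 and 7 months on the right turned in the matrix.

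Set against acinar cells, 4 granin genes were called higher and Scg2 lower at each of the 4 times. Most tested genes differed too: 79.8% were called at day 10 (40.2% higher, 39.6% lower), 79.4% at day 30 (39.7% higher, 39.7% lower), 77.0% at day 60 (37.6% higher, 39.4% lower) and 77.7% at 7 months (37.8% higher, 39.9% lower), so that a call by itself says little. With genes unmeasured in a group placed at their bound, the median log2 difference of the 5 genes was 2.64 at day 10, 4.83 at day 30, 5.23 at day 60 and 5.15 at 7 months, against a median of all tested genes between −0.0144 and 0.014. The fitted values, which put unmeasured acinar signals below that floor, gave 3.51, 5.30, 5.69 and 5.62. The 8 markers of gut endocrine cells summed to 44877 to 47660 at day 10, 36220 to 40800 at day 30, 11529 to 15230 at day 60 and 10654 to 14290 at 7 months, against 5977 to 6957 in acinar cells. Of these Gip, encoding an incretin, read 19575 to 21530 at day 10 and was measured on no acinar array. The markers did not move as one. Gip, Sct and Pyy were above their acinar signals on all induced arrays. Gal, at 5409 to 6333 in acinar cells, read 17906 to 18414 at day 10 and 13088 to 13780 at day 30. At day 60 and 7 months Gal read 3582 to 6181. Nts was measured on no array, and Cck, Tph1 and Tac1 read 132 or less on every induced array. Th, encoding the tyrosine hydroxylase of catecholamine cells, read 1074 to 2126 over the induced arrays and was measured on no acinar array, and the part of such cells in the granin differences was not tested. For comparison, all 5 were called higher in the comparison of endogenous beta with acinar cells, with 79.5% of all tested genes called and 42.1% called higher. There Chga was at least 264-fold, Chgb at least 248-fold, Scg3 at least 291-fold and Vgf at least 49.4-fold higher, and Scg2 differed by 6.89 ± 0.16. The deposited means differed 188-fold for Chga, 201-fold for Chgb, 220-fold for Scg3 and 62.7-fold for Vgf. In these bulk samples fewer cells of a type and less RNA per cell cannot be told apart.

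Set against endogenous beta cells, all 5 genes were called lower at day 10, where 80.0% of tested genes were called and 41.9% were called lower. At day 30 the calls were 4 lower and 1 not called (74.4% of tested genes called, 39.9% lower). At day 60 and at 7 months Scg2, Scg3 and Vgf were called lower and Chga and Chgb were not called (77.7% and 77.9% of tested genes called, 43.2% lower at both). For Chgb the difference was −2.53 ± 0.16 at day 10 (adjusted p = 7.69e-10) and −0.77 ± 0.16 at day 30 (adjusted p = 0.000514), the second of which was not called with median scaling (−0.079) or in the log10 matrix (−0.039). Its interval at day 60 ran from −0.21 to 0.49, and at 7 months from −0.27 to 0.43. For Chga the difference was −0.56 ± 0.13 at day 10 (adjusted p = 0.000739), but 0.27 with median scaling and 0.085 in the log10 matrix, so its direction depends on the scaling. At day 30 it was −0.26 ± 0.13 and not called (adjusted p = 0.0709), but called lower with offset 50 (adjusted p = 0.0225), limma's own inference of controls (0.00779), no background correction (0.0195), only the groups compared (0.000324, or 0.0018 with the replicate block), the replicate block (0.037) or without acinar array 3 (0.0148). It was 0.29 with median scaling and 0.33 in the log10 matrix, so this direction too depends on the scaling. The interval of Chga ran from −0.22 to 0.32 at day 60 and from −0.24 to 0.30 at 7 months.

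With quantile normalization, the order of groups by level also split the family. Scg2, Scg3 and Vgf were highest in endogenous beta cells, with no array of any other group in that range. Chga and Chgb were highest at day 60, followed by 7 months and endogenous beta cells, and those 3 neighbours overlapped. Day 30 came next and day 10 after it for both, with no overlap between them. For Vgf day 30 was second. Below it day 60 overlapped both day 10 and 7 months, while all 7-month arrays lay below all day 10 arrays. For Scg3 day 60, 7 months and day 30 overlapped, and day 10 stood apart below them.

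Across time, the levels of all 5 genes differed among the 4 induced groups by limma's moderated F-test, as did 84.0% of tested genes. Between day 30 and day 10, Chgb rose by 1.75 ± 0.16 (adjusted p = 3.46e-07), Scg3 by 2.19 ± 0.19 (adjusted p = 1.92e-07) and Vgf by 0.54 ± 0.17 (adjusted p = 0.0116), where 61.2% of tested genes were called and 31.2% were called higher. Chga, with a difference of 0.30 ± 0.13 (adjusted p = 0.0531), and Scg2, which was measured at neither time, were not called. The Chga comparison was called with offset 50 (adjusted p = 0.0149) and with no background correction (0.0127), among other settings, and was 0.019 and not called with median scaling. It was also called without acinar array 3 (adjusted p = 0.0126), 7-month array 3 (0.0439), day 60 array 1 (0.0494) or day 60 array 3 (0.0359). The Scg2 comparison, at an adjusted p of 0.0557, was called without 7-month array 1 (0.039) or 3 (0.0462), day 30 array 1 (0.0492), day 60 array 1 (0.0186) or day 60 array 3 (0.0367).

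Between day 60 and day 30, 3 members were called higher and 1 lower, with 61.8% of tested genes called (30.3% higher, 31.6% lower). Chgb rose by 0.91 ± 0.16 (adjusted p = 0.000191), a 1.88-fold difference where the deposited means differed 1.23-fold. Scg2 rose at least 2.00-fold (adjusted p = 1.23e-06), from a time at which no array measured it. Its deposited means differed 1.88-fold. Vgf fell by 0.77 on the log2 scale (SE 0.17, adjusted p = 0.000934). Chga was higher by 0.31 ± 0.13 (adjusted p = 0.0422), but −0.13 with median scaling and −0.16 in the log10 matrix, and the call was lost without any 1 of the 3 day 10 arrays, the 3 day 30 arrays or day 60 arrays 1 and 2 (adjusted p from 0.0507 to 0.129). Scg3, at 0.39 ± 0.19 (adjusted p = 0.0878), was called without day 60 array 2 (0.62, adjusted p = 0.00808).

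Between 7 months and day 60 no member was called, nor was any of the 8942 tested genes (0% by limma, with 200 at an unadjusted p under 0.05). The member differences ran from −0.076 for Scg3 to 0.19 for Scg2. Between 7 months and day 10, 75.1% of tested genes were called and 35.5% were called higher. Chgb was higher by 2.61 ± 0.16 (adjusted p = 1.11e-09), Scg3 by 2.51 ± 0.19 (adjusted p = 1.11e-08) and Scg2 by at least 1.82-fold (adjusted p = 1.41e-08). Chga was higher by 0.59 ± 0.13 (adjusted p = 0.00057), but −0.12 with median scaling and 0.031 in the log10 matrix, neither of them called. Vgf, at −0.25 ± 0.17 (adjusted p = 0.187), was not called.

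**Figure D3:**
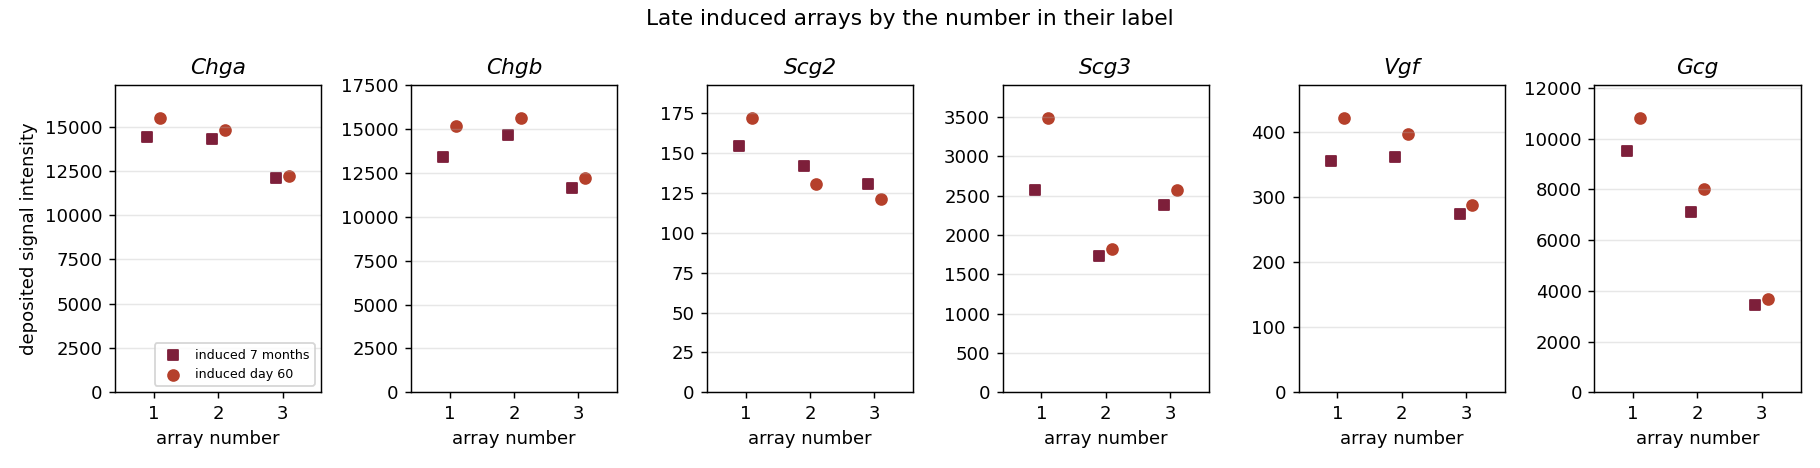
Deposited signal intensity (linear axis from 0) of the 5 granin genes and of Gcg on 7-month and day 60 arrays, by the number in the array's label; each point is 1 array. Arrays of one number lie close together: Scg3 is lowest in number 2 and Vgf in number 3 at both times, and Gcg is 9507 and 10817 in number 1 against 3440 and 3686 in number 3.

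The spread among late arrays followed these numbers. Scg3 was 2578 at 7 months and 3490 at day 60 in number 1 but 1733 and 1820 in number 2, while Vgf was 274 and 288 in number 3 but 355 and 422 in number 1. Scg2 was highest in number 1 at both times, as was Gcg. Marker sums of other cell types moved along: the 7 mesenchymal markers summed to 6827 at 7 months and 7484 at day 60 in number 2, against 2935 and 3466 in number 1, and the 7 macrophage markers to 4300 and 4911 against 1617 and 1857. The 3 red blood cell markers in the table summed to 7024 and 8046 in number 1, against 1073 and 1113 in number 2. Chga and Chgb, like Vgf, were lowest in number 3 at both times. There the 11 beta markers summed to 52864 at 7 months and 52969 at day 60, against 63740 and 62769 in number 2. The 6 duct markers summed to 7284 and 8305 in number 3, against 3328 and 3966 in number 1. The part of these cell types in the granin values was not tested.

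Genes for granule proteins that work with granins, and for their processing and release, were taken as a list of 30, of which 26 were in the table and 21 were tested. At 7 months against acinar cells 19 were higher and 2 lower, where 77.7% of all tested genes were called, 37.8% higher and 39.9% lower. Their median log2 difference was 1.82 with unmeasured genes at their bound and 2.05 as fitted, against −0.0123 over all tested genes. Pcsk2, the convertase that cuts granin precursors, differed by 7.67 ± 0.10 (adjusted p = 1.53e-17). Scg5, encoding the chaperone of that convertase, differed by 6.54 ± 0.074 (adjusted p = 1.89e-18) and was measured on 1 of 3 acinar arrays. Pcsk2, Scg5 and Slc30a8 of this list are among the 27 genes with 7-month values of more than 7 digits. Resp18, a granule protein gene, differed by 6.40, and Pcsk1n, encoding a granin-like inhibitor of the other convertase, was at least 13.8-fold higher. Hid1, needed for granule maturation, was lower by −0.87 but −0.0055 with median scaling and 0.38 in the log10 matrix. Pam, which amidates peptides, was −0.43 but 0.35 with median scaling and 0.62 in the log10 matrix. Pcsk1 and Snap25 did not pass the filter.

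Against endogenous beta cells at 7 months 4 of the 21 were higher, 14 lower and 3 not called, where 34.7% of all tested genes were called higher and 43.2% lower (median −0.88, against −0.0974 over all tested genes). Syt4, a granule synaptotagmin, differed by −5.97, Ptprn, a granule membrane protein gene, by −3.82, Pam by −2.68 and Cplx2, encoding a complexin, by −2.45. Syt4 was not measured at day 10 or day 30, as Scg2 was not. Stx1a, encoding a syntaxin of the fusion machinery, was higher by 2.79, Slc18a2, a vesicular monoamine transporter gene, by at least 2.35-fold, Cadps, a priming factor gene, by 0.96 and Pclo, an active zone gene, by 0.85. Scg5 (−0.88) and Pcsk1n (−1.36) were also lower, and Pcsk2 was not called (−0.17, adjusted p = 0.159).

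**Figure D4:**
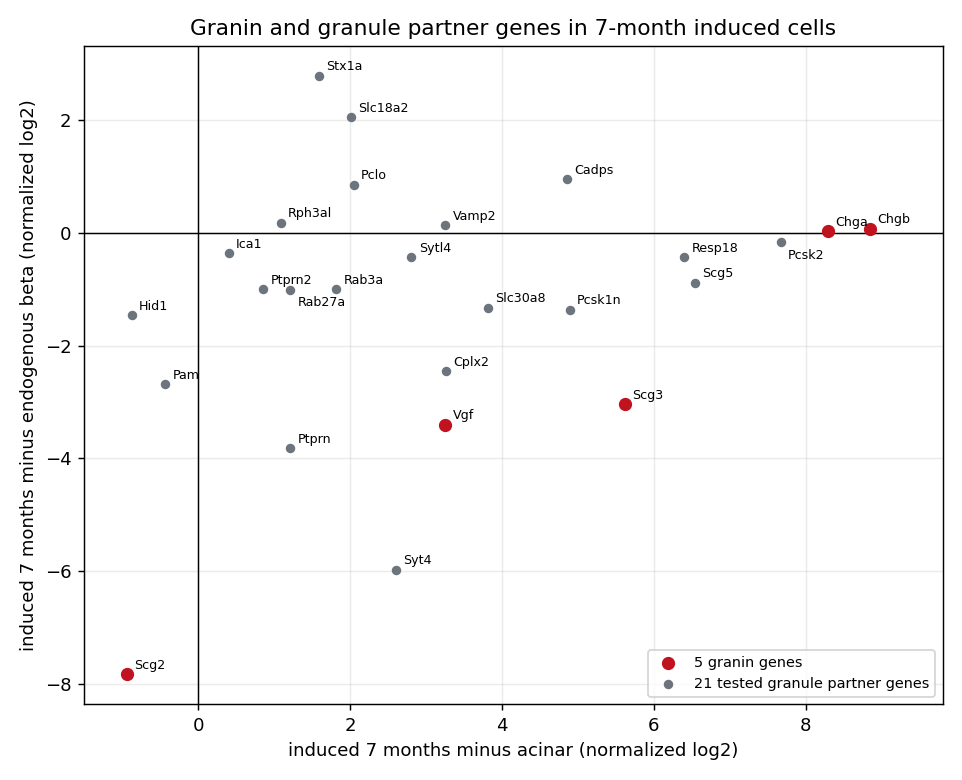
Difference of normalized log2 intensity at 7 months, minus acinar cells (horizontal) and minus endogenous beta cells (vertical), for the 5 granin genes and 21 tested granule partner genes; each point is 1 gene, and values against unmeasured groups are fitted values, not bounds. Chga, Chgb and Pcsk2 lie near 0 on the vertical axis and Scg2 and Syt4 lowest, while the horizontal sign of Pam turned with median scaling and in the log10 matrix, and those of Hid1 and Scg2 in the matrix.

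Of 16 transcription factors and cofactors known at granin or endocrine genes, 10 were tested. At 7 months against acinar cells 9 were higher and 1 not called (median 1.89 at the bounds and 2.02 as fitted, against −0.0123 over all tested genes, of which 37.8% were called higher). Against endogenous beta cells 5 were higher, 2 lower and 3 not called (median 0.44 at the bounds, against −0.0974 over all tested genes, of which 34.7% were called higher and 43.2% lower). Rfx6, a factor of islet development, was at least 68.5-fold higher than in acinar cells, Insm1, a zinc finger factor that endocrine precursors need, at least 45.4-fold, Myt1 at least 19.8-fold and Neurod1, a bHLH activator of islet genes, at least 7.93-fold. Like Chga and Chgb, Rfx6, Insm1, Myt1 and Neurod1 are among the 27 genes with 7-month values of more than 7 digits. Against endogenous beta cells Rfx6 was higher by 2.19, Neurod1 by 1.51 and Egr1, an immediate-early factor, by 1.10. Myt1 was higher by 0.70, but not called with median scaling (0.20) or in the log10 matrix (0.16). Insm1 was not called (−0.066, adjusted p = 0.666), but was −0.44 and −0.47 and called in those settings. Isl1, an islet LIM homeodomain factor, was lower by −4.94 and Crem, a cyclic AMP response factor, by −2.52. Rest, a repressor of neuronal and endocrine genes with known sites at granin genes, and Creb1 did not pass the filter, so their levels were not compared.

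Profiles over the 18 arrays were compared by the root mean square difference of log2 values after each gene was centred on its own mean, as a description. Nearest to Chga were Vstm2l (0.35), Ins2 (0.58) and Camk2b (0.58), and nearest to Chgb were Pcsk2 (0.48), Ins1 (0.63) and Chga (0.73). Scg2 was nearest to Pdyn, the prodynorphin gene (1.00), Enpp2 (1.07) and Isl1 (1.17). Pdyn read 7020 to 7388 in endogenous beta cells and was measured on no array of any other group. Scg3 was nearest to Rgs4 (0.81), Prkcb (0.86) and Ppp1r1a (0.91), and Vgf to Bace2 (0.45), Rgs17 (0.48) and Tmem130 (0.52). Within the family the closest pair was Chga and Chgb (0.73), followed by Scg3 and Vgf (1.15), and the widest was Chga and Scg2 (4.45).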

How the data were processed

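The deposited signal intensities come with a deposited detection p-value per symbol and array, per the file headers, and the authors' series matrix holds log10 of those signals. Software: not given in the sources used here. Signals were corrected by normexp (offset 16) with control mean and SD inferred from genes with detection p-values at whole multiples of 1 over 798, put on log2 and quantile normalized in limma 3.58.1 (R 4.3.3). A first version of that inference gave control means above the array medians and was replaced after member values and calls had been seen, which moved some calls, including those of Chga at day 30. The 8942 genes detected (p under 0.01) on 3 or more arrays entered 1 limma fit of all 18 arrays with 13 comparisons and an F-test, with calls below 0.05 after Benjamini-Hochberg adjustment over all of them. Bounds put a floor (5.02 to 6.12 log2) in place of unmeasured arrays, a rule set after values were seen. They hold on the quantile-normalized scale, and some exceed the ratio of the deposited means. In data simulated for day 30 minus day 10 (8942 genes, 200 changed) 74% of 1.5-fold and 93% of 2-fold changes were called. The members and lists were chosen with earlier results of these data known; from the lists, up to 4 called genes a direction were named by size, with Rest, Insm1, Scg5, Pcsk1n, Pcsk1 and Pcsk2 always. The same-number check held for 1 of 15 group pairs, day 60 with 7 months, from the data and not the labels. Chga has detection p-values off the grid in acinar cells.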

Additional observations from a re-analysis of the deposited data

Results flagged for a closer look

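The level of each granin gene differed between the 4 induced times by limma's moderated F-test, which flagged all 5: the adjusted p was 0.000934 for Chga, 1.55e-09 for Chgb, 1.01e-08 for Scg2, 1.18e-08 for Scg3 and 0.00129 for Vgf, where 84.0% of tested genes passed. The F-test alone was used here, in place of single time comparisons, after those had been seen. Of the time differences of Chga, day 60 minus day 30 turned with median scaling (−0.13) and in the log10 matrix (−0.16), 7 months minus day 10 turned with median scaling (−0.12) but not in the matrix (0.031), and day 30 minus day 10 was above 0 in every setting run. Scg2 was measured only at day 60 and 7 months among induced times.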

How the results depend on the processing

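Apart from the exceptions below, the counts of called granin, partner and factor genes stayed within 1.5 times under the alternatives run (461 values within and 4 outside). With 1 array left out, 717 values were within and 3 outside. The count of granin genes called between day 30 and day 10 was 3, and 5 with no background correction, with the series matrix values, and with only the groups compared, with or without the replicate block; with 1 array left out it ran from 3 to 5. Results that turned with median scaling were Chga at day 10 (0.27) and day 30 (0.29) minus endogenous beta, Chga at day 60 minus day 30 (−0.13) and at 7 months minus day 10 (−0.12), and Pam at 7 months minus acinar (0.35). With the series matrix values they were Chga at day 10 (0.085) and day 30 (0.33) minus endogenous beta and at day 60 minus day 30 (−0.16), Scg2 at day 60 (0.22) and 7 months (0.25) minus acinar, and Pam (0.62) and Hid1 (0.38) at 7 months minus acinar; the cause was not tested. The median of all genes in induced minus acinar was 0.417 to 0.676 with median scaling and 0.599 to 0.935 in the matrix, against −0.0144 to 0.014 with quantile normalization, and the share of higher calls there was 48.7% to 50.4%, against 69.3% to 77.8% and 85.5% to 93.6%. Chgb at day 60 minus endogenous beta was called only in the matrix (0.25). With the replicate block 4 granin genes were called between day 30 and day 10 (Chga adjusted p = 0.0261), and Chga at day 30 minus endogenous beta was called (adjusted p = 0.037); other than at day 60 and 7 months the numbers showed no pairing, and the block called 0 genes between those times. Leaving out the 7-month arrays or fitting the block within the groups compared were added after seeing the data; the first called Scg2 at day 30 minus day 10 (adjusted p = 0.0398) and changed no other granin call. Scg2 at day 10 and day 30, and the other 4 in acinar cells, were not measured at the detection cut, which limits them to bounds.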
